A study of Mus musculus with 8 samples.

Results

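Glutathione and antioxidant defense genes were followed in macrophages of mouse epididymal white adipose tissue (eWAT). They were the genes whose symbols belong to the glutathione peroxidase (Gpx), glutathione S-transferase (Gst), microsomal glutathione S-transferase (Mgst), peroxiredoxin (Prdx), superoxide dismutase (Sod), thioredoxin (Txn) and thioredoxin reductase (Txnrd) families, joined by Gclc, Gclm, Gss, Gsr, Cat, Nqo1, Srxn1, Slc7a11 and Nfe2l2. The rule took 55 of the 18040 genes listed for either diet, and 51 of them were listed for both diets. Gsta2, Gpx5, Gstt4 and Prdx6b were listed for the high-fat diet alone.

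The libraries compared adhesion-related macrophages (ARMs), which stay attached to adipocytes after collagenase digestion, with macrophages of the stromal vascular fraction (SMs, labelled NARM). All mice were wild type, and the study's methods describe male C57BL/6J animals placed on a diet at 6 weeks of age. One pair of groups came from mice on a normal chow diet (ND) and the other from mice on a high-fat diet (HFD, 60% fat) for 8 weeks, with 2 libraries each of HFD ARM, HFD SM, ND ARM and ND SM. By the methods each library pooled sorted cells of several mice, 6 for HFD and 10 for ND. ARMs were freed from floating adipocytes by vortexing with beads and SMs were not, so handling and cell type cannot be told apart.

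Cells remove superoxide with superoxide dismutases, and the hydrogen peroxide that results is reduced by catalase, glutathione peroxidases and peroxiredoxins. Glutathione is built from cysteine, which enters as cystine through the Slc7a11 transporter, by glutamate-cysteine ligase (Gclc and Gclm) and glutathione synthetase, and thioredoxin and thioredoxin reductase keep peroxiredoxins active. The transcription factor NRF2, encoded by Nfe2l2 and held in check by KEAP1, binds antioxidant response elements in the promoters of many of these genes. In adipose tissue, macrophages take up lipid and cell debris and meet reactive oxygen species from their own NADPH oxidase.

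The libraries held between 18288775 and 19040133 estimated reads in HFD and between 14508824 and 16319038 in ND. The biological coefficient of variation was 5.55% in HFD and 8.61% in ND. The ND replicates lay further apart, and ND ARM replicate 2 held more adipocyte and fibroblast RNA than replicate 1. With 2 libraries a group, p-values measure the spread between these pools only, and an exact permutation test of 2 against 2 could not go below p = 0.333. The sorted cells carried macrophage RNA: 10 macrophage markers (Adgre1, Cd68, Csf1r and others) summed to 11002 to 11671 FPKM in HFD and to 13163 to 13597 FPKM in ND, and 0 of the 10 differed between ARMs and SMs in either diet.

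Macrophages of both fractions expressed the peroxide-removing enzymes at high levels. On the FPKM scale, which divides by gene length and so allows genes to be ranked, Gpx1 stood first with a mean of 666 over the 8 libraries. Gpx1, the cytosolic glutathione peroxidase, ranged from 608 to 727 FPKM and supplied between 23.6% and 30.6% of the summed TPM (a length-scaled unit with one total for every library) of all these genes. Prdx1, a cytosolic peroxiredoxin, followed with a mean of 240 FPKM, and Sod1, the copper-zinc superoxide dismutase of the cytosol, with 156 FPKM. Nfe2l2 itself reached 141 FPKM on average, whereas Nqo1, a quinone reductase and common NRF2 target, lay between 0.32 and 0.84 FPKM and never above 18 reads. Together the 55 genes took 0.486% to 0.505% of TPM in HFD and 0.519% to 0.546% in ND. The order of the top genes was not firm throughout: Sod1, Nfe2l2 and Gstp1 overlapped between libraries.

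**Figure D1:**
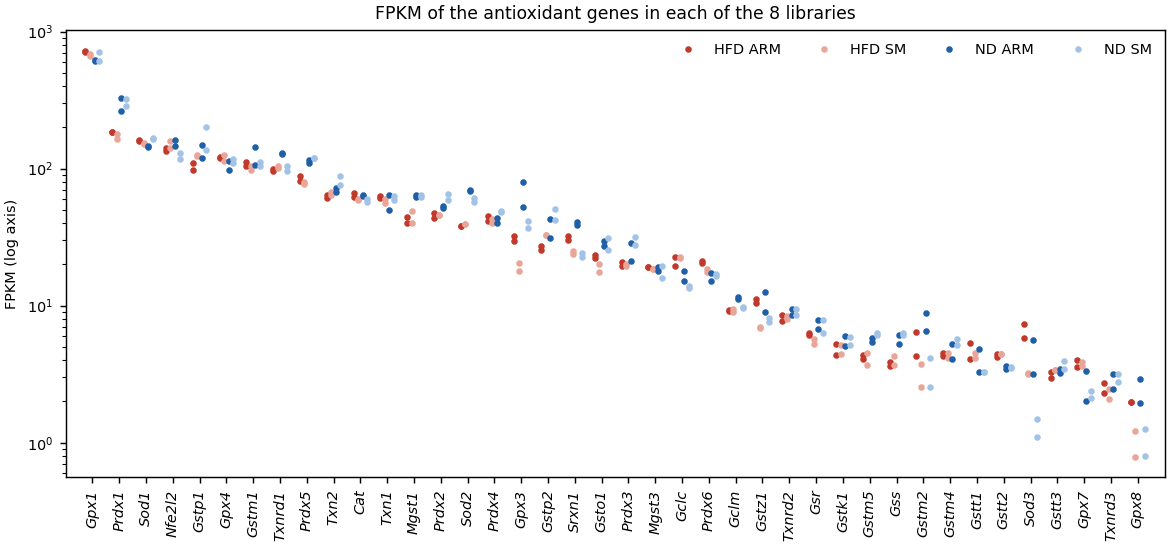
FPKM (log axis) of the 40 most abundant of the tested genes, ordered by their mean over 8 libraries, with a point for each library coloured by group. Gpx1 lies above the rest in every library, and most genes show all 4 groups close together, with Gpx3, Sod3 and Srxn1 among those where ARM points sit above SM points.

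Low genes could not be compared. Of the 55 genes, 46 passed the filter on low counts in HFD and 44 in ND, and 9 passed in neither diet (Gsta2, Gsto2, Gstm3, Gstm6, Gstt4, Gpx2, Gpx5, Mgst2 and Prdx6b). Gstm7 and Gstp3 were tested in HFD and not in ND. Of the untested genes 5 had at most 3 reads in every library.

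The first comparison asked how ARMs differ from SMs in HFD mice. Of 46 genes tested, 4 were higher in ARMs and 0 were lower by more than 1.5-fold at an adjusted p below 0.05 (Benjamini-Hochberg, edgeR's quasi-likelihood test, as throughout), against 4.75% of all genes tested. The 4 genes were Gpx3, Sod3, Gstz1 and Slc7a11, 8.7% of those tested. By direction, 4.46% of all genes tested were higher in ARMs and 0.292% were lower. At an unadjusted p under 0.05 there were 12 of the 46 genes in HFD (26.1%, against 23.2% of all genes).

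The second comparison put the same question in ND mice. Of 44 genes tested, 4 were higher in ARMs and 0 were lower, 9.09% of those tested, against 3.68% of all genes (3.55% higher and 0.129% lower). At an unadjusted p under 0.05 there were 16 of the 44 (36.4%, against 14.9% of all genes). Here the called genes were Srxn1, Sod3, Gpx3 and Gstm2. Sod3 and Gpx3 thus passed in both diets, and 6 genes passed in either. The shares of all genes called in both diets or in either were not counted, so these counts have no baseline. Most of the family moved little: 36 of 46 genes in HFD (78.3%) and 33 of 44 in ND (75%) changed by less than 1.25-fold, close to the 78.8% and 79.8% of all genes. The median log2 fold change was 0.04 in HFD and 0.00 in ND, beside -0.01 and -0.02 over all genes.

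**Figure D2:**
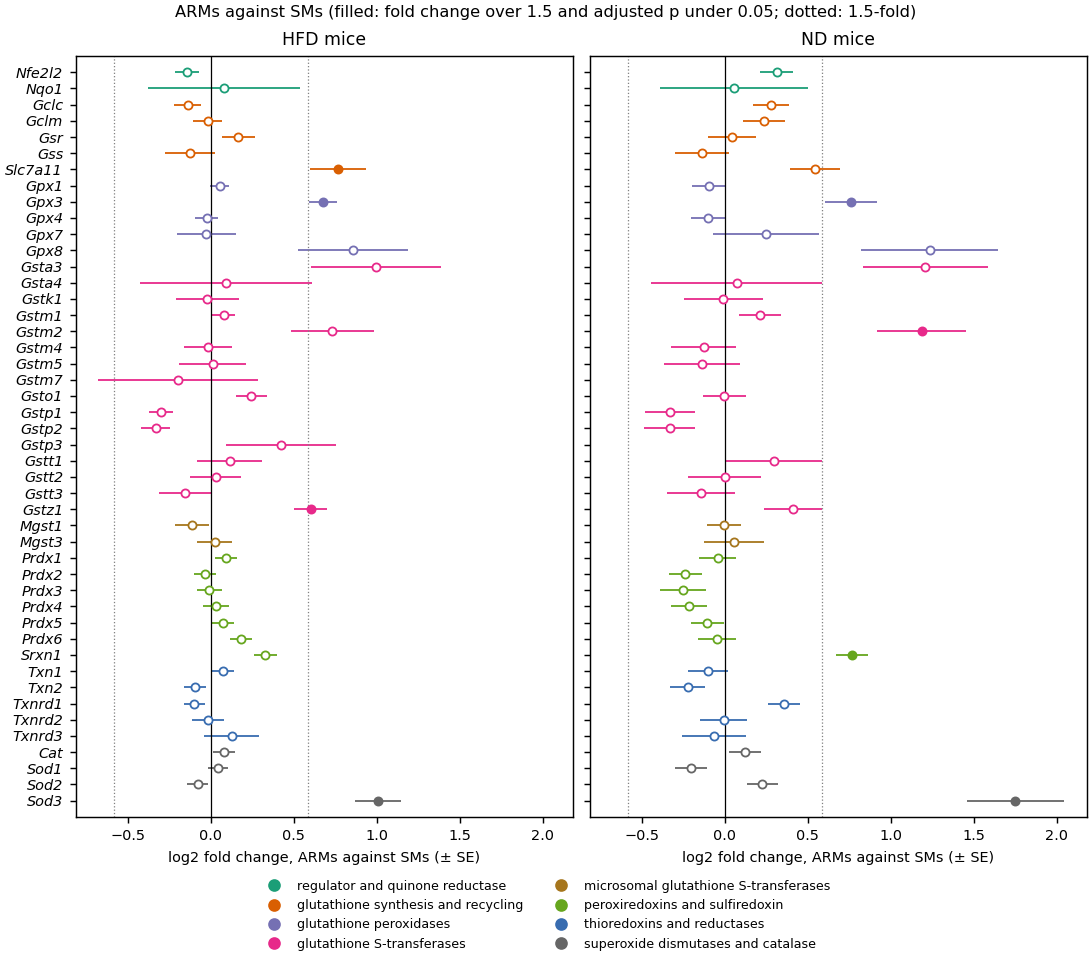
Log2 fold change of ARMs against SMs with its standard error for each tested gene, HFD on the left and ND on the right, coloured by role, with filled points for genes that passed the fold and p thresholds. The filled points (Slc7a11, Gpx3, Gstz1 and Sod3 in HFD, and Gpx3, Gstm2, Srxn1 and Sod3 in ND) all lie to the right of the 1.5-fold line, and most others cluster near 0.

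Of the genes of cystine import and glutathione synthesis and recycling, 1 of 5 was higher in ARMs of HFD mice, beside 4.46% of all genes tested. In ND 0 of 5 passed, beside 3.68% of all genes. In a list this short, these counts do not stand apart from those shares. The gene called in HFD, Slc7a11 (gene ID 26570, chromosome 3, 50364936 to 50499087, GRCm38.p6), encodes the transporter subunit of the cystine-glutamate antiporter. Its FPKM was 1.13 and 1.32 in HFD ARMs and 0.61 and 0.84 in HFD SMs, and 2.17 and 2.86 in ND ARMs against 1.79 and 1.66 in ND SMs. ARMs were above SMs in each diet without overlap, at a low level. The log2 fold change was 0.77 (SE 0.17, adjusted p = 0.0186) in HFD. In ND it was 0.54 (SE 0.15, adjusted p = 0.0542), short of both thresholds. The HFD call was lost on leaving out HFD SM replicate 1 (log2 fold change 0.54, adjusted p = 0.0384, under 1.5-fold), HFD ARM replicate 1 (0.86, adjusted p = 0.101) or HFD ARM replicate 2 (0.67, adjusted p = 0.231). It was also lost with limma on log2(FPKM + 1) (0.37, adjusted p = 0.132) or log2(FPKM + 0.1) (0.69, adjusted p = 0.148), and in edgeR with no filter on low counts (adjusted p = 0.143).

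Gclc, the catalytic subunit of glutamate-cysteine ligase, had 22.61 and 19.49 FPKM in HFD ARMs and 22.25 and 22.57 in HFD SMs, an overlap. In ND its ARM values of 18.04 and 15.06 FPKM lay above the SM values of 13.37 and 13.93. Neither difference passed (log2 fold change -0.14 ± 0.08 (SE), adjusted p = 0.342 in HFD, and 0.28 ± 0.11 (SE), adjusted p = 0.214 in ND). Gclm, the modifier subunit, had log2 fold changes of -0.02 (adjusted p = 0.931) and 0.24 (adjusted p = 0.433). In HFD the sign of Gclm depended on the scaling, with 0.0089 when library totals replaced the TMM factors. Gss, glutathione synthetase, and Gsr, glutathione reductase, changed by at most 0.17 on the log2 scale in either diet and passed in neither.

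Among glutathione peroxidases the secreted enzyme was the one that rose. Gpx3 (gene ID 14778, chromosome 11, 54902854 to 54910387) encodes the extracellular peroxidase found in plasma. It stood at 29.89 and 32.52 FPKM in HFD ARMs and at 20.50 and 17.87 in HFD SMs. In ND it stood at 52.48 and 80.56 FPKM in ARMs and at 36.82 and 41.64 in SMs. The groups did not overlap in either diet, and ND ARM replicate 2 was the highest library. The log2 fold changes were 0.67 (SE 0.08, adjusted p = 0.000885) in HFD and 0.76 (SE 0.16, adjusted p = 0.00941) in ND. Without ND ARM replicate 2 the ND value was 0.41 (adjusted p = 0.201), and without HFD SM replicate 2 the HFD value was 0.58, below 1.5-fold. In ND, DESeq2 did not call Gpx3 (log2 fold change 0.77, adjusted p = 0.271), nor did limma on log2(FPKM + 1) (0.72, adjusted p = 0.0783) or log2(FPKM + 0.1) (0.73, adjusted p = 0.0768).

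Gpx8, an endoplasmic reticulum member, showed a larger but less certain difference. Its FPKM was 1.99 and 1.98 in HFD ARMs against 1.21 and 0.79 in SMs, and 1.95 and 2.91 in ND ARMs against 0.80 and 1.25. ARMs were higher in each diet without overlap, from 10 to 36 reads a library. The log2 fold changes of 0.86 (SE 0.33, adjusted p = 0.147) and 1.23 (SE 0.41, adjusted p = 0.121) did not pass. Gpx1 had log2 fold changes of 0.05 (SE 0.06) in HFD and -0.10 (SE 0.10) in ND. Gpx4, which reduces lipid hydroperoxides, had -0.03 (SE 0.07) and -0.10 (SE 0.10). None of these 4 values passed.

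The glutathione S-transferases join glutathione to electrophiles. Of those tested, 1 of 16 was higher in ARMs in HFD and 1 of 14 in ND, beside 4.46% and 3.55% of all genes tested. In a list this short, 1 call does not stand apart from those shares. Gstz1 (gene ID 14874, chromosome 12, 87147161 to 87164723), a zeta class enzyme of tyrosine breakdown, had 10.49 and 11.24 FPKM in HFD ARMs and 6.92 and 6.98 in HFD SMs. In ND it had 8.93 and 12.60 FPKM in ARMs and 8.19 and 7.64 in SMs. ARMs were above SMs in both diets, by a log2 fold change of 0.60 (SE 0.10, adjusted p = 0.00403) in HFD and of 0.41 (SE 0.17, adjusted p = 0.263) in ND. The HFD call was lost without HFD ARM replicate 1 (adjusted p = 0.0525) or replicate 2 (adjusted p = 0.0823), while the log2 fold change stayed at 0.63 and 0.58.

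Gstm2 (gene ID 14863, chromosome 3, 107981702 to 107986420), a mu class enzyme, had 6.51 and 8.85 FPKM in ND ARMs and 2.55 and 4.14 in ND SMs. In HFD it had 4.30 and 6.47 FPKM in ARMs and 3.76 and 2.55 in SMs. The log2 fold change was 1.19 (SE 0.27, adjusted p = 0.0181) in ND and 0.73 (SE 0.25, adjusted p = 0.102) in HFD, with ARMs above SMs in each diet. It failed in ND without ND SM replicate 1 (0.88, adjusted p = 0.218) and without ND ARM replicate 2 (0.94, adjusted p = 0.238). The neighbouring mu class gene Gstm1, far more abundant at 97.1 to 144 FPKM, had log2 fold changes of 0.08 and 0.21 that did not pass. Gsta3, an alpha class enzyme, read 1.14 and 1.28 FPKM in HFD ARMs against 0.85 and 0.38 in SMs, and 1.59 and 2.45 in ND ARMs against 0.80 and 0.89. Its log2 fold changes of 0.99 (SE 0.39, adjusted p = 0.155) and 1.21 (SE 0.38, adjusted p = 0.0911) did not pass.

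The abundant pi class genes lay lower in ARMs of HFD mice. Gstp1, the main one, had 97.81 and 109.62 FPKM in HFD ARMs and 123.86 and 126.36 in HFD SMs, a log2 fold change of -0.30 (SE 0.07, adjusted p = 0.0251) that was under 1.5-fold. Its near-identical neighbour Gstp2 had -0.33 (SE 0.09, adjusted p = 0.0381) in HFD. In ND both stood at -0.33 with overlapping libraries (adjusted p = 0.305 for Gstp1 and 0.315 for Gstp2). The third pi class gene, Gstp3, lay the other way in HFD, with 2.46 and 1.75 FPKM in ARMs and 1.66 and 1.31 in SMs, and did not pass (log2 fold change 0.42, SE 0.33, adjusted p = 0.506). Gstp1 and Gstp2 carried fractional read counts in both diets, so reads were shared out between copies and their separate values are uncertain. Fractional counts occurred in 13 of these genes in HFD and in 3 in ND, Slc7a11, Gstm2 and Gstz1 of HFD included. The microsomal transferases Mgst1 and Mgst3 had log2 fold changes between -0.11 and 0.06 that did not pass.

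Srxn1 showed the clearest difference in ND. Sulfiredoxin, its product, repairs peroxiredoxins that have been over-oxidized by peroxide. Srxn1 (gene ID 76650, chromosome 2, 152105524 to 152111376) had 40.91 and 38.81 FPKM in ND ARMs and 24.20 and 22.75 in ND SMs. In HFD it had 32.33 and 30.34 FPKM in ARMs and 25.02 and 23.97 in SMs. ARMs lay above SMs in both diets without overlap. The log2 fold change was 0.77 (SE 0.10, adjusted p = 0.000296) in ND and 0.33 (SE 0.07, adjusted p = 0.0151) in HFD, the second below 1.5-fold. The ND call was kept without each library in turn, with log2 fold changes from 0.72 to 0.81.

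None of the peroxiredoxin genes Prdx1 to Prdx6 passed in either diet. Prdx1 had 186.13 and 186.03 FPKM in HFD ARMs and 178.84 and 163.76 in HFD SMs, a log2 fold change of 0.09 (SE 0.07, adjusted p = 0.46). In ND its libraries overlapped between 264.88 and 329.36 FPKM (log2 fold change -0.04, SE 0.11, adjusted p = 0.917). Over Prdx1 to Prdx6 the log2 fold changes ran from -0.04 to 0.18 in HFD and from -0.25 to -0.04 in ND.

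Of the thioredoxin system, Txnrd1 alone reached an adjusted p under 0.05, and only in ND. Txnrd1, the cytosolic thioredoxin reductase, had 129.49 and 127.02 FPKM in ND ARMs and 95.53 and 105.43 in ND SMs. In HFD the order was turned, with 99.18 and 95.74 FPKM in ARMs and 104.90 and 100.96 in SMs. The log2 fold change was 0.36 (SE 0.10, adjusted p = 0.047) in ND, under 1.5-fold, and -0.10 (SE 0.06, adjusted p = 0.388) in HFD. Txn1, Txn2, Txnrd2 and Txnrd3 lay between -0.22 and 0.13 on the log2 scale and did not pass in either diet.

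The extracellular superoxide dismutase had the largest log2 fold change of the tested genes in both diets, in HFD hardly above that of Gsta3. Sod3 (gene ID 20657, chromosome 5, 52363804 to 52369738) encodes the secreted, matrix-bound enzyme. Its FPKM was 5.82 and 7.33 in HFD ARMs and 3.24 and 3.17 in HFD SMs, and 3.17 and 5.64 in ND ARMs and 1.1 and 1.5 in ND SMs. Every ARM library exceeded both SM libraries of its diet. The log2 fold change was 1.01 (SE 0.14, adjusted p = 0.00156) in HFD and 1.75 (SE 0.29, adjusted p = 0.00209) in ND. Without ND ARM replicate 2 it was 1.27 (adjusted p = 0.0566). Sod1 and Sod2, the cytosolic and mitochondrial enzymes, and catalase did not pass, with log2 fold changes from -0.20 to 0.23.

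**Figure D3:**
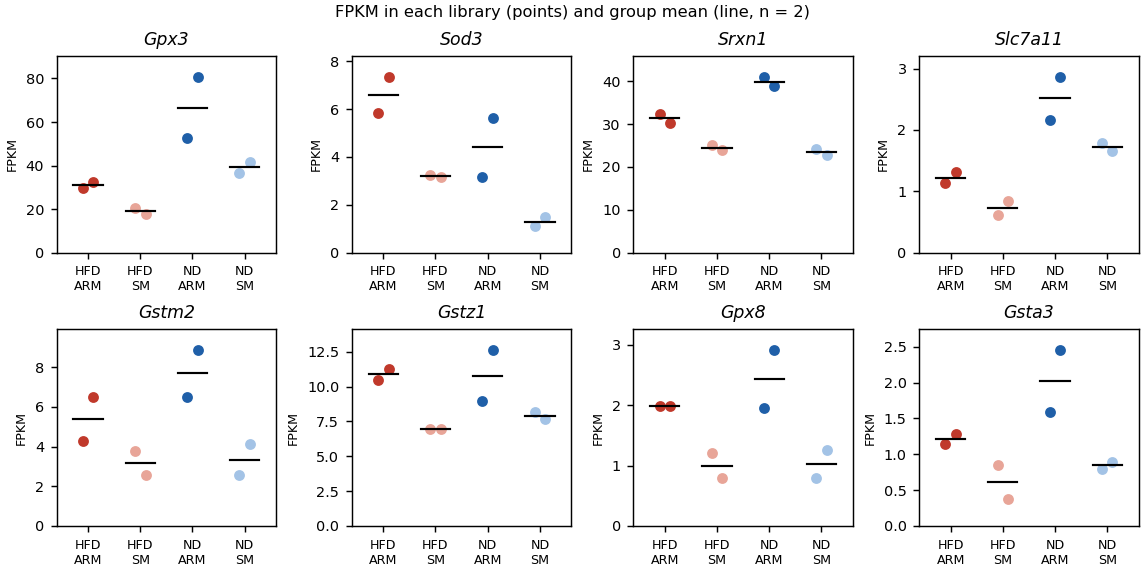
FPKM (linear axis from 0) of 8 genes in each library, by group, with a line at the mean of the 2 libraries. ARM points lie above SM points of the same diet in all 8 panels, and the ND ARM libraries lie well apart for Gpx3 (52.48 and 80.56 FPKM) and Sod3 (3.17 and 5.64 FPKM).

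Markers of several other cell types also differed between ARMs and SMs. Of 10 adipocyte markers 9 were higher in ARMs of HFD mice and 8 in ND, and they summed to 210 and 226 FPKM in HFD ARMs against 48.6 and 49.7 in HFD SMs, and to 181 and 297 in ND ARMs against 91.1 and 114 in ND SMs. Fibroblast and progenitor markers were higher for 6 of 10 genes in HFD and 9 of 10 in ND, summing to 181 and 222 FPKM in HFD ARMs, 135 and 122 in HFD SMs, 233 and 341 in ND ARMs and 83.9 and 114 in ND SMs. Endothelial markers were higher for 9 of 10 genes in HFD (58.7 and 56.4 FPKM against 23.7 and 16.5) and for 1 of 10 in ND (14.7 and 31.8 FPKM against 11.7 and 13.8). Mesothelial markers were higher for 0 of 8 genes in HFD and 6 of 8 in ND, and pericyte markers for 3 of 8 in each diet. Few T and NK markers had enough reads to be tested, 1 of 8 in HFD and 0 of 8 in ND. Of B markers 3 of 5 were tested in each diet, and of neutrophil and mast cell markers 5 of 8 in HFD and 6 of 8 in ND. None of those tested was higher in ARMs, and 1 neutrophil marker, S100a9, was lower in ND ARMs (log2 fold change -1.43, SE 0.30, adjusted p = 0.0119). The neutrophil and mast cell markers summed to 37.5 and 65.3 FPKM in ND ARMs and to 81.5 and 71.5 in ND SMs, and to 46.1 and 46.2 in HFD ARMs and 38.9 and 39.0 in HFD SMs, and their part in the results was not tested. None of the adipocyte markers was at 0 in any library. In ND ARMs the library with more adipocyte and fibroblast RNA was replicate 2. Replicate 2 was also the higher one for 5 of the 6 genes called in either diet, Srxn1 being the exception. The share of all genes higher in replicate 2 was not counted, and the 6 genes were called on these libraries. The count therefore has no baseline and carries no conclusion. The part of these cells in the values of Gpx3, Sod3, Gstm2, Gstz1 and Slc7a11 was not tested, and in bulk RNA fewer cells of a type and less RNA per cell cannot be told apart.

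The third comparison asked whether the ARM to SM difference itself differed between diets. None of 46 genes passed (0 at an adjusted p under 0.05 in edgeR's quasi-likelihood test), where 0.165% of all genes did (0.0674% with the larger and 0.0973% with the smaller value in HFD). At an unadjusted p under 0.05 there were 6 genes (13% against 7.61% of all genes), 5 with a smaller log2 fold change in HFD (Txnrd1, Srxn1, Nfe2l2, Gclc and Sod2) and 1 with a larger one (Sod1). All genes at this p leaned the same way, 656 with a smaller and 361 with a larger value in HFD. Txnrd1 differed by -0.47 (HFD less ND, SE 0.11, adjusted p = 0.129) and Srxn1 by -0.45 (SE 0.11, adjusted p = 0.182). Nfe2l2 differed by -0.47 (SE 0.13, adjusted p = 0.209). It had 142.16 and 134.86 FPKM in HFD ARMs, 158.50 and 141.55 in HFD SMs, 145.54 and 161.33 in ND ARMs and 117.51 and 129.99 in ND SMs. In ND the ARM libraries were the higher ones and in HFD they overlapped with SMs.

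Gclc differed by -0.44 (SE 0.14, adjusted p = 0.336) and Sod2 by -0.32 (SE 0.10, adjusted p = 0.35). Sod1 differed by 0.23 (SE 0.10, adjusted p = 0.63). DESeq2 called 1 gene, Txnrd1 (-0.46, adjusted p = 0.0163). ARM and SM libraries did not overlap but stood in opposite order in the 2 diets for 5 genes, Gstp3, Prdx5, Sod1, Sod2 and Txnrd1 (10.9% of the 46, against 4.21% of all genes), and the difference passed for none of them. Gstp3 was not tested within ND, where its order rests on 4 to 6 reads a library. Srxn1 aside, the genes called within a diet had differences with larger standard errors. Sod3 differed by -0.75 (SE 0.36, adjusted p = 0.664) and Gpx3 by -0.10 (SE 0.22, adjusted p = 0.976). Slc7a11 differed by 0.21 (SE 0.24, adjusted p = 0.937), Gstm2 by -0.47 (SE 0.41, adjusted p = 0.895) and Gstz1 by 0.17 (SE 0.21, adjusted p = 0.94). These values do not show that the diets act alike.

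**Figure D4:**
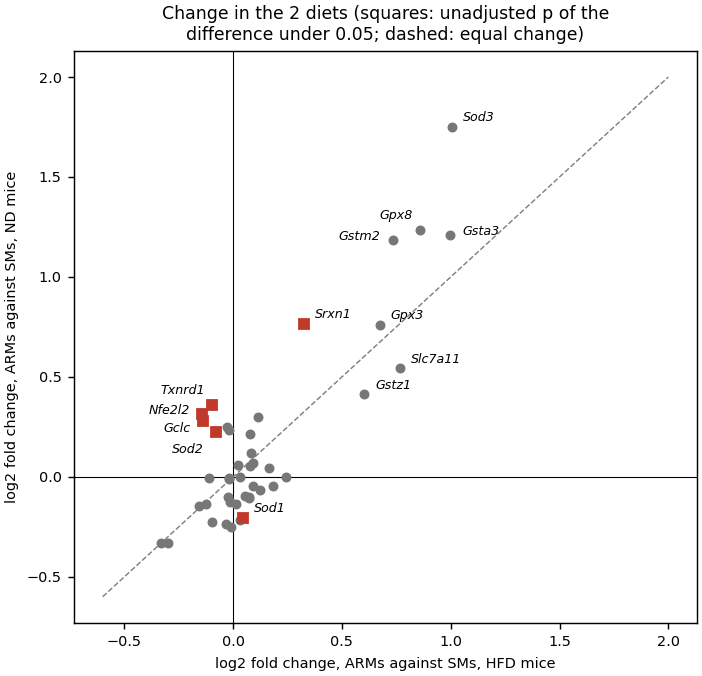
Log2 fold change of ARMs against SMs in HFD (horizontal) and in ND (vertical) for each of the 44 genes tested in both diets, with a dashed line of equal change. Red squares mark genes with an unadjusted p under 0.05 for the difference: Srxn1, Txnrd1, Nfe2l2, Gclc and Sod2 lie above the line and Sod1 below it.

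The promoters of Srxn1, Txnrd1 and Nfe2l2, the genes with the lowest p-values for this difference, were read from the RefSeq windows of GRCm38.p6, which run from 250 bases before to 50 bases after the annotated start, and are shown with that of Gpx3, which passed in both diets. Capitals mark matches to the antioxidant response element core TGACNNNGC, the site type bound by NRF2, or to the AP-1 site TGANTCA, with both strands searched. Windows were given for 48 of the 55 genes, and Sod3 and Gclc were not among them.
Srxn1 (chr2:152105274-152105573, plus strand): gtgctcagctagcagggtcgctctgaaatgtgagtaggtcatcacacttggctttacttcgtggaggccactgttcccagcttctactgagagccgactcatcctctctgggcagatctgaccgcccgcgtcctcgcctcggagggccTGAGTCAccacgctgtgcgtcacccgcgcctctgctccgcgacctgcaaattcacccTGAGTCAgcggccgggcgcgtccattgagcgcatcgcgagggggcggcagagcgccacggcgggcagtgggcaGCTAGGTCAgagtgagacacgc
Txnrd1 (chr10:82858956-82859255, plus strand, 1 of 3 windows and the one with a match): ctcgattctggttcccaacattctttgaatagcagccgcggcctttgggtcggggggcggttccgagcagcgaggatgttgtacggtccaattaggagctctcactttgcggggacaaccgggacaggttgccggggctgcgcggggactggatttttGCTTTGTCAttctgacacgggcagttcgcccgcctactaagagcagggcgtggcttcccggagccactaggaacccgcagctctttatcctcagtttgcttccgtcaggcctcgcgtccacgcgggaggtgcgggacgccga
Nfe2l2 (chr2:75704614-75704913, minus strand): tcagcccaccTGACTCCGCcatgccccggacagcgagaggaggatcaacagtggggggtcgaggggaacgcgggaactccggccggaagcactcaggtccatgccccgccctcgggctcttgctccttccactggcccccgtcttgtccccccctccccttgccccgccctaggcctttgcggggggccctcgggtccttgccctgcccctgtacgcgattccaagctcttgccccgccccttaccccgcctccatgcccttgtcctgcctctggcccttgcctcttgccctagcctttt
Gpx3 (chr11:54902604-54902903, plus strand): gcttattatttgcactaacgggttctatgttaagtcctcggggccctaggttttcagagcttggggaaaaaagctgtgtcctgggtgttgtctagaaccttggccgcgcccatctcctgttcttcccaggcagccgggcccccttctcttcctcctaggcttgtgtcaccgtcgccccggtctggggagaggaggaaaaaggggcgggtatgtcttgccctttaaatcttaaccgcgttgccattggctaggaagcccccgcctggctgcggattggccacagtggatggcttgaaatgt
Srxn1 held 2 AP-1 matches, which began 102 and 45 bases before the start, and a core match after it, on the opposite strand. Txnrd1 had a core match 92 bases before the start, also on the opposite strand, and Nfe2l2 had one 240 bases before it. The Gpx3 window held neither motif, nor did the other 2 windows of Txnrd1 or the window of Sod2, and that of Sod1 held a core match. The core occurred in 10 of the 48 genes (20.8%), namely Gclm, Gsta3, Gstm5, Gstm7, Mgst1, Nfe2l2, Prdx1, Sod1, Srxn1 and Txnrd1, and in 14% of all 27025 genes with a window. The AP-1 site occurred in 6 of the 48 genes (12.5%) and in 8.97% of all genes. The core and AP-1 matches overlapped in Prdx1. A match is a run of letters in this window and was not tested as a binding site. Other forms of either site were not searched, so a window without a core match may still hold such a form.

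Genes that act with this family were taken from lists of 63 companions. Of 60 tested in HFD, 3 were higher and 2 lower in ARMs, beside 4.46% and 0.292% of all genes tested. Of 59 tested in ND, 1 was higher and 1 lower, beside 3.55% and 0.129% of all genes. Me1, the malic enzyme that makes NADPH, had 2.35 and 2.33 FPKM in HFD ARMs against 0.55 and 0.50 in SMs (log2 fold change 2.12, SE 0.19, adjusted p = 0.000126), and 3.17 and 4.24 in ND ARMs against 1.33 and 1.62 (1.33, SE 0.21, adjusted p = 0.00154). Adipocyte markers were higher in the same libraries, and their part in the Me1 values was not tested. Txnip, an inhibitor of thioredoxin, fell in ARMs of both diets. Its FPKM was 163.04 and 183.91 in HFD ARMs against 283.46 and 263.05 in SMs (log2 fold change -0.68, SE 0.07, adjusted p = 0.000297), and 118.41 and 108.22 in ND ARMs against 206.66 and 205.94 (-0.86, SE 0.10, adjusted p = 0.000166). Ltc4s, leukotriene C4 synthase, which uses glutathione, was lower in HFD ARMs (log2 fold change -0.60, SE 0.07, adjusted p = 0.000577) and did not pass in ND (-0.25, adjusted p = 0.266). Ptges (0.94, SE 0.26, adjusted p = 0.0481) and Msrb3 (0.79, SE 0.21, adjusted p = 0.0419) were higher in HFD ARMs. Both were low, reaching 0.83 FPKM for Ptges and 1.23 for Msrb3 in HFD. In ND neither passed (1.02, adjusted p = 0.0898 for Ptges, and 0.26, adjusted p = 0.825 for Msrb3).

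Partners and other targets of NRF2 did not pass the call: 0 of 13 in HFD and 0 of 13 in ND. Of all genes tested 4.75% passed in HFD and 3.68% in ND. In a list this short, 0 calls does not stand apart from those shares. Hmox1, heme oxygenase, was at 1087.89 and 926.03 FPKM in HFD ARMs and 1298.56 and 1289.83 in HFD SMs (log2 fold change -0.39, SE 0.08, adjusted p = 0.0134, under 1.5-fold), and its ND value was 0.05 (SE 0.12, adjusted p = 0.905). Abcc1, a transporter of glutathione conjugates, had -0.27 (adjusted p = 0.0286) in HFD and -0.10 (adjusted p = 0.722) in ND. Maff, a small MAF partner of NRF2, had 108.55 and 112.51 FPKM in ND ARMs and 80.69 and 74.16 in ND SMs (log2 fold change 0.52, SE 0.10, adjusted p = 0.00482, under 1.5-fold), and 0.07 (adjusted p = 0.606) in HFD. Log2 fold changes were above 0 for 3 of the 13 genes in HFD and for 9 of the 13 in ND. Over all genes tested they were above 0 for 6468 of 13337 in HFD and for 5779 of 12441 in ND. Keap1, the NRF2 repressor, had -0.21 (adjusted p = 0.129) in HFD and -0.16 (adjusted p = 0.582) in ND. Of the NADPH oxidase subunits 0 of 7 passed in HFD and 0 of 6 in ND, and of the genes of glutathione turnover and glutaredoxins 0 of 10 in each diet. The same limit holds for these short lists.

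Levels in HFD and ND could only be described, since each diet has its own table and diet, table and pools cannot be told apart. On the FPKM scale, HFD ARMs lay wholly above ND ARMs for 9 of 46 genes and wholly below for 23, against 28.5% and 43.2% of all genes. For SMs the counts were 9 and 26, against 27.4% and 46.4% of all genes. In CPM scaled by TMM the split was 13 above and 15 below in ARMs (36.5% and 35.5% of all genes) and 18 above and 15 below in SMs (37.4% and 33.8% of all genes), so the lean towards lower values in HFD depended on the scale. The median gene itself shifted by -0.10 (log2) in ARMs and -0.12 in SMs on the FPKM scale, and by 0.00 and 0.02 in CPM. Sod1 turned in SMs with the scale: its HFD to ND ratio was 0.925 in FPKM and 1.19 in CPM.

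On FPKM, TPM and TMM CPM alike, and in both cell types, 10 genes were lower in HFD (25.5% of all genes were) and 6 were higher (20.2% of all genes). As shares these are 21.7% and 13% of the 46 genes. The lower ones were Gpx3, Slc7a11, Sod2, Prdx1, Prdx2, Prdx5, Gss, Mgst1, Gsto1 and Gstm5. Gpx3 in HFD stood at 0.469 of its ND FPKM in ARMs and 0.489 in SMs, Slc7a11 at 0.487 and 0.420, and Sod2 at 0.553 and 0.669. Prdx1 stood at 0.626 in ARMs and 0.560 in SMs. The higher ones were Sod3, Gclc, Gpx7, Gstt2, Gstp3 and Prdx6. The FPKM of Sod3 in HFD was 1.49 times its ND value in ARMs and 2.47 times in SMs, and that of Gclc 1.27 and 1.64 times. The FPKM ratio of Gstp3 was 4.90 in ARMs, the largest of the 16 genes there, and 2.23 in SMs, below that of Sod3. It came from 22 to 40 reads in HFD libraries and 4 to 6 in ND libraries. Gpx3 and Sod3, called in both diets, and Slc7a11, called in HFD alone and not under several alternatives, were among these 16 genes. Sod3 was the higher in HFD and the others the lower. Both shares lay below those of all genes, so such an order does not mark these genes out.

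**Figure D5:**
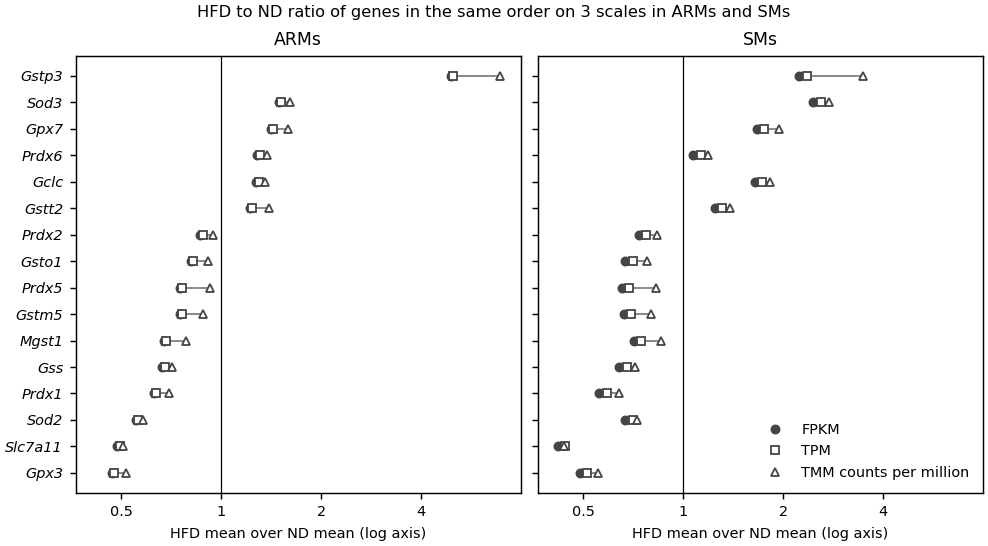
Ratio of the HFD mean to the ND mean (log axis) in ARMs and SMs for the 16 genes in the same order on FPKM, TPM and TMM CPM in both cell types. Gpx3, Slc7a11, Sod2 and Prdx1 lie lowest on the left of 1 in ARMs and Gstp3 and Sod3 lie furthest right in both panels.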

How the data were processed

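RNA of FACS-sorted macrophages (200 ng a library) was sequenced in 8 libraries. The authors deposited a table for each diet, which gives estimated counts, FPKM and TPM per gene and library. Per the labels the genome build was mm10, and the aligner and counter are not given in the sources used here. The authors' average columns were not used. FPKM and TPM were used as the authors deposited them to show levels, and estimated counts, rounded to whole numbers, were tested with edgeR 4.0.16 in R 4.3.3: TMM factors (0.989 to 1.02), filterByExpr, quasi-likelihood fit per diet, Benjamini-Hochberg adjustment over all genes. A call needed more than 1.5-fold change at an adjusted p below 0.05. The difference between diets was an interaction over all 8 libraries, 13358 genes. Diet levels were described without a test. DESeq2 1.42.0, limma 3.58.1 on log2(FPKM + 1) or log2(FPKM + 0.1), other scalings, filters, a replicate block and leaving out each library were the alternatives. Fits were tested on simulated data. Figures used matplotlib 3.10.9 in Python 3.11.15.

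The genes, the companion lists and the marker lists were chosen with earlier results of these data known. Genes called in either diet, changed over 1.5-fold, most abundant in their role, or central to NRF2 and glutathione synthesis (Nfe2l2, Nqo1, Gclc, Gclm, Slc7a11, Srxn1) were named by rule, and any other gene was named after its values were seen. Replicates differed beyond counting noise in each group (mean chi-square per gene 4.22 to 10.1). Depth limits the precision of genes with few reads. Positions and promoters came from RefSeq on GRCm38.p6, the build of mm10, matched by gene ID or symbol.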

Additional observations from a re-analysis of the deposited data

How the results depend on the processing

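The count of 4 genes called in HFD was 2 with no filter on low counts (Gpx3 and Gstz1), 7 with an unadjusted p and a log2 fold change over 0.6, and 0 with limma on log2(FPKM + 1) without a filter. That limma fit also gave 0 in ND in place of 4. Leaving out each library gave 2 to 4 calls in HFD (2, Gpx3 and Sod3, without either HFD ARM library) and 1 to 7 in ND (Srxn1 alone without ND ARM replicate 2, and 7 without ND ARM replicate 1). The labels give both cell types replicate numbers 1 and 2, but nothing says that a number marks shared mice, and the deviations of same-numbered libraries correlated at -0.0284 in HFD and 0.221 in ND over 2 pairs each. The fit with a replicate block gave 4 calls in HFD, 6 in ND (Gpx8 and Gsta3 added) and 2 for the difference between diets (Nfe2l2 and Txnrd1) in place of 0, and DESeq2 gave 1 for that difference. Of 623 values of named genes under alternatives, 561 kept direction and side of the threshold, 17 passed only there, 26 failed only there and 19 changed sign, each from a log2 fold change near 0 in the main fits. These were Gclm in HFD (0.0089 with library totals or limma on log2(FPKM + 0.1), 0.0046 with upper-quartile factors, 0.0081 with limma on log2(FPKM + 1) with or without a filter, and -0.0521 to 0.0168 with a library left out) and Mgst1 in ND (0.0016 with DESeq2 or its size factors, 0.0026 in one fit of 8 libraries, and -0.0363 to 0.0202 with a library left out). With a library left out the ranges were -0.2532 to 0.0441 for Mgst1 in HFD, -0.5083 to 0.4997 for Nqo1 in HFD and -0.2457 to 0.3184 in ND, -0.1973 to 0.0068 for Gpx1 in ND and -0.2039 to 0.0964 for Prdx1 in ND. The cause of these shifts was not tested. Nqo1, Gpx8 and Gsta3 had at most 44 reads a library, which limits their precision.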
